A study of Homo sapiens with 12 samples.

Results

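Iron and heme handling was followed through 10 genes: TFRC and SLC11A2, which bring iron into the cell, FTH1 and FTL, which store it, SLC40A1, which exports it, ALAS1, FECH, SLC25A37 and FAM210B, which serve heme synthesis, and HMOX1, which degrades heme. Their transcript clusters, the probe groups by which the array reads a locus, were taken from the platform table wherever it gives 1 of these symbols alone. For FAM210B the cluster TC20001302, to which the study's supplementary list gives that name, was added. The platform table does not name this cluster and its position was not checked here, so that its identity rests on that list alone. This gave 10 clusters for 9 of the 10 genes, among 67528 clusters and 22465 singly named genes on the array. FTH1, the ferritin heavy chain, was not analysed here, because the platform table used pairs no cluster with its symbol alone.

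Both HT-29 and SW480 are long-established cancer cell lines from human colorectal adenocarcinoma, so each stands for 1 tumour. The untreated groups (HT-29 0 ng/mL and SW480 0 ng/mL) stayed in medium free of folic acid (FA), and the treated groups (HT-29 10000 ng/mL and SW480 10000 ng/mL) received 10000 ng/mL FA, both for 72 h. Total RNA was hybridised to Human Transcriptome Array 2.0 chips, with 3 arrays per group and 12 in all. The FA stock contained NaOH, and no array here is labelled as solvent without FA, so the vitamin and its solvent cannot be told apart. The labels name biological replicates, and the study's methods describe cells seeded in triplicate wells. No source says whether the 3 arrays of a group came from such wells or from independent cultures. All p-values therefore only set group differences against the spread within the groups of these 12 samples, which may be technical.

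Cells take up transferrin-bound iron through the transferrin receptor, move it out of endosomes, and pass it to ferritin for storage, to ferroportin for export, or to mitochondria, where heme and iron-sulfur clusters are made. When cellular iron is low, iron regulatory proteins bind a stem-loop called the iron-responsive element, which protects the TFRC mRNA from decay and blocks translation of the ferritin mRNAs. In the intestine the same parts carry dietary iron from the gut lumen to the blood, with SLC11A2 on the luminal side and SLC40A1 on the blood side.

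Promoter windows from RefSeq (GRCh38.p14, 250 bases before to 50 after an annotated start) were found for 7 of the 10 genes, in 10 windows. They were searched because much of the known control of this pathway is read from short motifs in ferritin mRNA and in promoters. The loop letters of the iron-responsive element, CAGTGN on the transcribed strand, occurred in the 50 bases after the start in 1 of the 10 windows, that of FTL, and in 6.36% of 35116 windows of all genes. The core of the antioxidant response element, TGACNNNGC on either strand, occurred in the windows of FECH and FAM210B and in 13.3% of all windows. CACGTG, the E-box, occurred in 0 of the 10 windows and in 7.26% of all. In the sequences shown, capitals mark the match, which in FECH and FAM210B reads TGACNNNGC on the opposite strand. They are FTL at chr19:48965329-48965358 (plus strand, match from position 39 after the start), FECH at chr18:57586721-57586750 (minus strand, from position -38) and FAM210B at chr20:56358914-56358943 (plus strand, from position -50).
FTL: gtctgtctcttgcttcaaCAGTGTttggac
FECH: ccgggagggcGCGAGGTCAgggggctgggg
FAM210B: gagggccctcGCCGGGTCAgctccgcccac
A match of letters is a description of the window and does not show that a protein binds there.

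The values are log2 signals as deposited, and no array value gives a detection call. The number of arrays limits the precision. HT-29 0 ng/mL replicate 3 stood apart: its median over all clusters was 4.75 against 4.30 to 4.58 on the other arrays, and its correlation with the remaining HT-29 arrays was 0.944 to 0.954, where theirs among themselves was 0.988 to 0.995. HT-29 results are therefore also given without it. Identical values on all 3 arrays of a group occurred in 23.2% of all clusters and in 3 of the 10 clusters here (FECH, SLC11A2, SLC25A37). Among all genes, each taken by its brightest cluster, they occurred in 39.6%. The origin of this equality was not tested. It gives an SD of 0. Of the epithelial markers, KRT8, KRT18, KRT19 and EPCAM were high in both lines (EPCAM group means of 12.55 to 14.33). The list median of the 10 markers was 11.06 to 12.41 on the HT-29 arrays and 7.55 to 8.11 on the SW480 arrays, and its part in the line differences was not tested. KRT20 had a mean of 13.16 in HT-29 0 ng/mL and 3.78 in SW480 0 ng/mL, LGALS4 one of 9.64 and 3.97, CDH1 one of 12.61 and 8.21 and VIL1 one of 7.59 and 5.56. CDX2, a marker of intestinal identity, was low in both (4.49 to 5.53). Medians over red blood cell markers (7 of 10 measured) lay between 3.89 and 4.25, over macrophage and leukocyte markers (9 of 10) between 4.11 and 4.49, and over fibroblast and endothelial markers (7 of 8) between 3.95 and 4.40, all near the array medians.

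**Figure D1:**
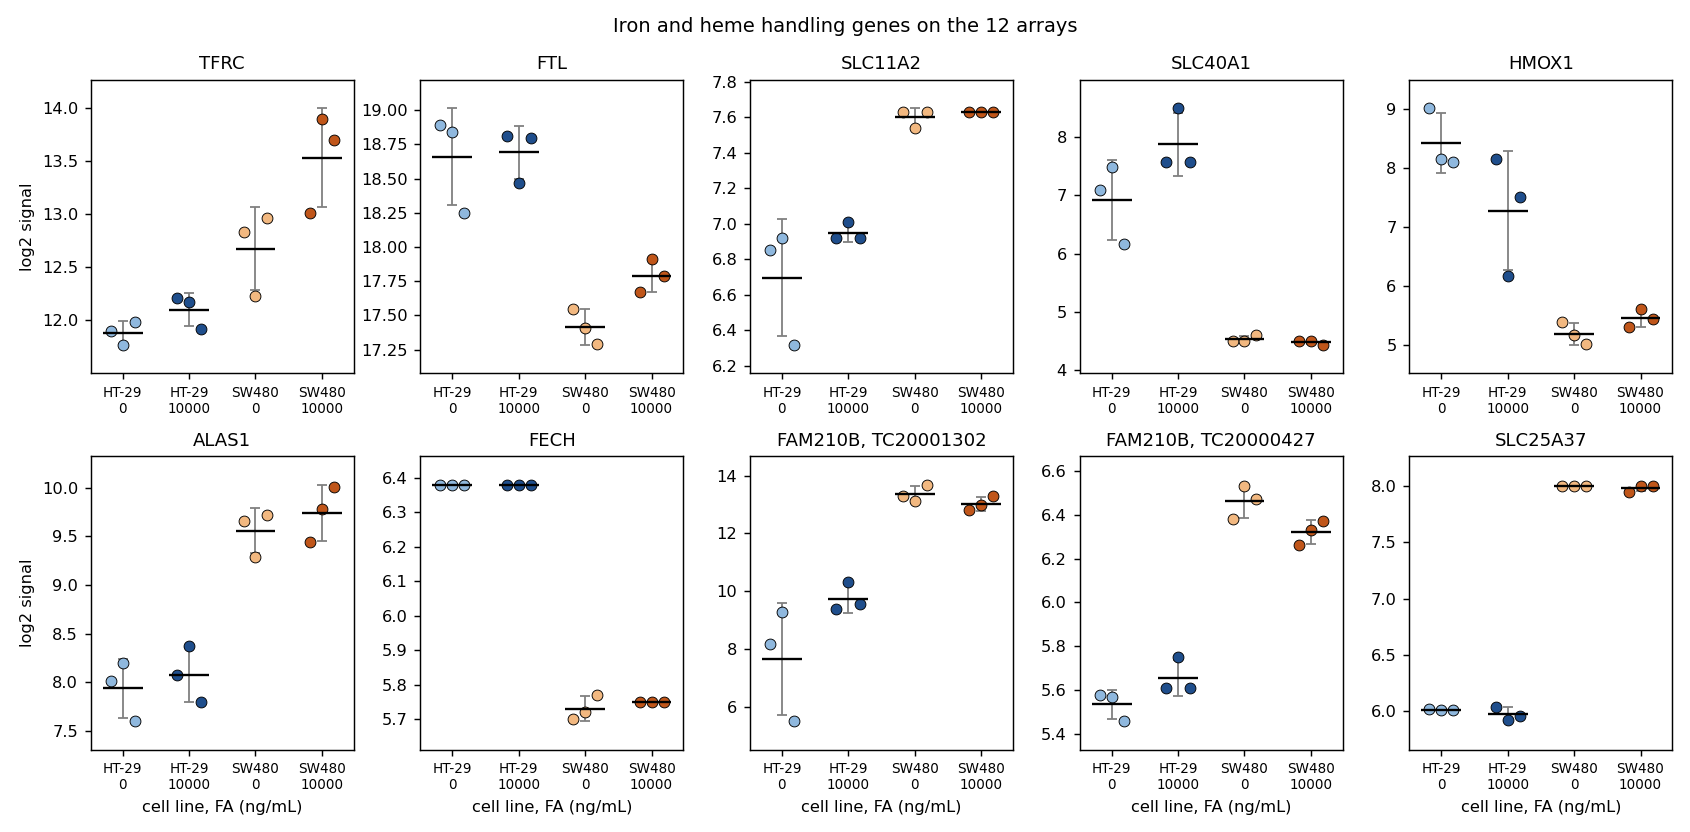
Log2 signal (vertical axes, scaled to each cluster) of the 10 clusters in HT-29 and SW480 at 0 and 10000 ng/mL FA. Points are single arrays in replicate order, horizontal lines are group means and bars are 1 SD (n = 3), and in every panel the HT-29 and SW480 points lie apart.

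The cell lines differed in all 9 measured genes. TFRC, SLC11A2, ALAS1, SLC25A37 and FAM210B were higher in SW480, and FTL, SLC40A1, HMOX1 and FECH were higher in HT-29, at 0 ng/mL as at 10000 ng/mL FA. In limma, 9 of 9 were called at a Benjamini-Hochberg adjusted p under 0.05 at each dose, 5 higher and 4 lower in SW480. Line differences were common on this array: 42.7% of all clusters were called at 0 ng/mL and 41.1% at 10000 ng/mL. Of all genes, each taken by its brightest cluster, 53.9% were called at 0 ng/mL (36.8% higher and 17% lower in SW480) and 53.2% at 10000 ng/mL (37% and 16.2%). The median log2 difference (SW480 minus HT-29) of the members was 0.79 at 0 ng/mL and 0.68 at 10000 ng/mL, against 0.12 and 0.15 over all genes, and over the 8 members other than FAM210B, 4 in each direction, it was 0.07 and 0.02. No HT-29 array overlapped a SW480 array of the same dose in any of the 10 clusters. Over all genes at 0 ng/mL, 39.9% lay wholly higher and 21.3% wholly lower in SW480, and at 10000 ng/mL 51.8% and 28.2%. Without HT-29 0 ng/mL replicate 3 all 9 were again called at 0 ng/mL, where 67.9% of all genes then were. In bulk RNA, fewer cells with a transcript and less of it per cell cannot be told apart.

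Both importers were higher in SW480. TFRC, the receptor that takes up transferrin with its iron, read 11.90, 11.77 and 11.98 in HT-29 0 ng/mL, 12.21, 12.17 and 11.92 in HT-29 10000 ng/mL, 12.83, 12.23 and 12.97 in SW480 0 ng/mL and 13.01, 13.90 and 13.70 in SW480 10000 ng/mL. The gap at 0 ng/mL rested on a narrow margin, with the lowest SW480 array at 12.23 and the highest HT-29 array at 11.98. The log2 difference was 0.79 ± 0.24 (SE) at 0 ng/mL (limma, adjusted p = 0.0243) and 1.44 ± 0.24 at 10000 ng/mL (adjusted p = 9.58e-04). The TFRC call at 0 ng/mL was lost with quantile normalization (0.37, adjusted p = 0.369). It was also lost without HT-29 0 ng/mL replicate 1 (adjusted p = 0.0526), HT-29 0 ng/mL replicate 2 (0.0650), SW480 0 ng/mL replicate 1 (0.0791) or SW480 0 ng/mL replicate 3 (0.0880), and the call at 10000 ng/mL was kept under every alternative tried.

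SLC11A2, the divalent metal transporter DMT1 that carries iron across the luminal and endosomal membranes, read 6.85, 6.92 and 6.32 in HT-29 0 ng/mL and 6.92, 7.01 and 6.92 in HT-29 10000 ng/mL. In SW480 it read 7.63, 7.54 and 7.63 at 0 ng/mL and 7.63 on each array at 10000 ng/mL. All SW480 arrays thus lay above all HT-29 arrays. The log2 difference was 0.90 ± 0.13 at 0 ng/mL (limma, adjusted p = 3.83e-04), or 0.72 without HT-29 0 ng/mL replicate 3, its lowest array, and 0.68 ± 0.13 at 10000 ng/mL (adjusted p = 0.00234).

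The members measured for storage and export, FTL alone and SLC40A1 alone, stood on the other side, higher in HT-29. FTL, the ferritin light chain whose mRNA carries the loop letters shown, read 18.89, 18.84 and 18.25 in HT-29 0 ng/mL and 18.81, 18.47 and 18.80 in HT-29 10000 ng/mL. In SW480 it read 17.55, 17.41 and 17.29 at 0 ng/mL and 17.67, 17.91 and 17.79 at 10000 ng/mL. These signals lay at the 99.8th to 99.9th percentile of each array. All were below 19.93, the highest value on the arrays, at which 31 to 41 clusters stood together on 10 of them. The log2 difference was -1.24 ± 0.17 at 0 ng/mL (limma, adjusted p = 2.43e-04) and -0.90 ± 0.17 at 10000 ng/mL (adjusted p = 0.00193).

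SLC40A1, ferroportin, the only known exporter of iron from mammalian cells, read 7.09, 7.49 and 6.16 in HT-29 0 ng/mL and 7.56, 8.49 and 7.56 in HT-29 10000 ng/mL. In SW480 it read 4.51, 4.51 and 4.60 at 0 ng/mL and 4.51, 4.51 and 4.44 at 10000 ng/mL. The SW480 values lay at the 48th to 54.4th percentile of their arrays, near the middle of all clusters, and with no detection call it is not known whether they were above background. On this scale the log2 difference was -2.37 ± 0.33 at 0 ng/mL (5.18-fold, limma, adjusted p = 2.56e-04) and -3.38 ± 0.33 at 10000 ng/mL (10.4-fold, adjusted p = 2.08e-05). Without HT-29 0 ng/mL replicate 3, again the lowest HT-29 array, the difference at 0 ng/mL was -2.75.

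**Figure D2:**
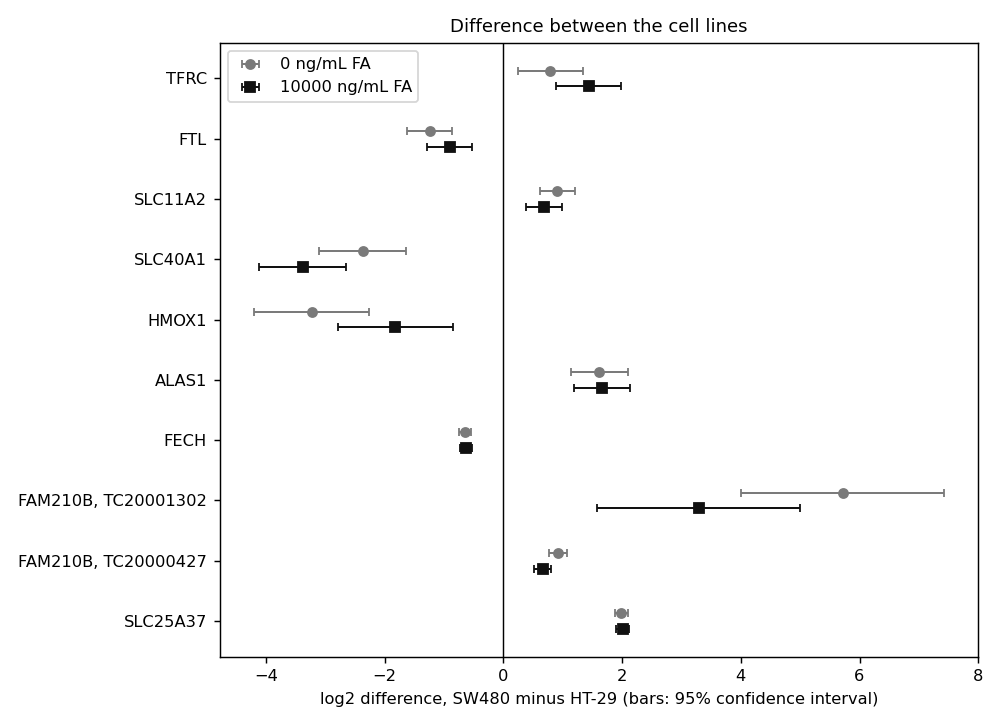
Log2 difference between the lines (SW480 minus HT-29, horizontal axis) for each cluster at 0 ng/mL (grey circles) and 10000 ng/mL FA (black squares), with 95% confidence intervals from limma. No interval reaches 0, and TFRC at 0 ng/mL comes nearest, with a lower bound of 0.25.

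The 4 genes of heme synthesis did not share a direction: the first enzyme and both mitochondrial membrane proteins were higher in SW480, and the last enzyme was lower. ALAS1, the housekeeping form of the enzyme that starts heme synthesis and sets its rate, read 8.01, 8.20 and 7.60 in HT-29 0 ng/mL and 8.07, 8.37 and 7.80 in HT-29 10000 ng/mL. In SW480 ALAS1 read 9.66, 9.29 and 9.72 at 0 ng/mL and 9.44, 9.78 and 10.01 at 10000 ng/mL. The lowest SW480 array (9.29) was above the highest HT-29 array (8.37), with log2 differences of 1.62 ± 0.21 (limma, adjusted p = 1.81e-04) and 1.66 ± 0.21 (adjusted p = 1.51e-04).

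SLC25A37, mitoferrin 1, which imports iron into mitochondria, read 6.02, 6.01 and 6.01 in HT-29 0 ng/mL and 6.04, 5.92 and 5.96 in HT-29 10000 ng/mL. In SW480 it read 8.0 on 5 arrays and 7.95 on SW480 10000 ng/mL replicate 1. The arrays of a line thus lay close together and the lines far apart, with a log2 difference of 1.99 ± 0.05 at 0 ng/mL (limma, adjusted p = 1.78e-09) and 2.01 ± 0.05 at 10000 ng/mL (adjusted p = 1.61e-09), with equal values contributing to the small SE.

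FECH, ferrochelatase, which puts iron into protoporphyrin in the last step, read 6.38 on all 6 HT-29 arrays. Such equality over all HT-29 arrays was shared by 1.2% of clusters and 2.6% of genes. In SW480 FECH read 5.70, 5.72 and 5.77 at 0 ng/mL and 5.75 on each array at 10000 ng/mL. SW480 lay below HT-29 throughout, by a log2 difference of -0.65 ± 0.04 (limma, adjusted p = 1.73e-06) and -0.63 ± 0.04 (adjusted p = 2.12e-06).

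FAM210B is a mitochondrial membrane protein that in mouse erythroid cells aids iron import and heme synthesis. Its cluster TC20000427, so named by the platform table, read 5.58, 5.57 and 5.46 in HT-29 0 ng/mL, 5.61, 5.75 and 5.61 in HT-29 10000 ng/mL, 6.38, 6.53 and 6.47 in SW480 0 ng/mL and 6.26, 6.33 and 6.37 in SW480 10000 ng/mL. The added cluster TC20001302 read 8.17, 9.26 and 5.49 in HT-29 0 ng/mL, 9.37, 10.31 and 9.54 in HT-29 10000 ng/mL, 13.28, 13.11 and 13.68 in SW480 0 ng/mL and 12.82, 12.97 and 13.29 in SW480 10000 ng/mL. Both clusters were higher in SW480 on every array, by different amounts. For TC20000427 the log2 difference was 0.92 ± 0.07 at 0 ng/mL (limma, adjusted p = 2.75e-06) and 0.66 ± 0.07 at 10000 ng/mL (adjusted p = 2.97e-05). For TC20001302 it was 5.72 ± 0.76 at 0 ng/mL (adjusted p = 2.01e-04) and 3.29 ± 0.76 at 10000 ng/mL (adjusted p = 0.00639). TC20001302 entered through a list chosen on the HT-29 arrays, which these line differences also use, and without HT-29 0 ng/mL replicate 3, at 5.49, the first was 4.64. FAM210B was called at both doses by either cluster.

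HMOX1, heme oxygenase 1, the inducible enzyme that opens heme to biliverdin, iron and carbon monoxide, was lower in SW480. It read 9.02, 8.15 and 8.11 in HT-29 0 ng/mL and 8.15, 6.18 and 7.52 in HT-29 10000 ng/mL. In SW480 it read 5.39, 5.18 and 5.02 at 0 ng/mL and 5.31, 5.62 and 5.45 at 10000 ng/mL. These SW480 values lay at percentiles of 63 to 70.9 of their arrays. With no detection call it is not known whether they were above background. HT-29 10000 ng/mL replicate 2 was the HT-29 array nearest to SW480. The log2 difference was -3.23 ± 0.43 at 0 ng/mL (9.38-fold, limma, adjusted p = 2.10e-04) and -1.82 ± 0.43 at 10000 ng/mL (3.54-fold, adjusted p = 0.00730).

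FA was compared with its absence within each line. In HT-29 no member passed the test: 0 of 9 were called by limma at an adjusted p under 0.05, as were 0% of all clusters, which does not show that FA left them unchanged. The study had listed FAM210B (TC20001302) among its largest rises in HT-29, so its HT-29 values are given as a description and it is left out of the counts that follow. Of the other 8 members, 2 (SLC40A1 and HMOX1) had an unadjusted p under 0.05, against 4.54% of all genes. The same 2 met the criteria of the study's methods (a 1.5-fold change or more at an unadjusted p up to 0.05), as did 1.15% of genes. Without HT-29 0 ng/mL replicate 3 SLC40A1 met neither criterion (1.495-fold, limma, unadjusted p = 0.0567). HMOX1 still met both (2.465-fold, limma, unadjusted p = 0.0328). The share of all genes in that fit is not given here.

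SLC40A1 was higher on all 3 FA-treated HT-29 arrays (7.56 to 8.49) than on the untreated ones (6.16 to 7.49), with a mean of 7.87 ± 0.54 against 6.91 ± 0.68 (SD, n = 3). The margin between the nearest arrays was small, at 7.56 and 7.49. The log2 difference of 0.96 ± 0.33 (95% confidence interval 0.22 to 1.69) did not pass the test (limma, adjusted p = 0.587), and it was 0.58 without HT-29 0 ng/mL replicate 3. HMOX1 had a mean of 7.28 ± 1.01 with FA and 8.43 ± 0.51 without, and the groups met at 8.15. Its log2 difference was -1.14 ± 0.43 (adjusted p = 0.587). It ran from -1.58 to -0.59 when single arrays were left out, with -0.59 without HT-29 10000 ng/mL replicate 2, the lowest array.

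The FAM210B cluster TC20001302 had a mean of 9.74 ± 0.50 with FA and 7.64 ± 1.94 without. The log2 difference was 2.10, and 1.03 without HT-29 0 ng/mL replicate 3. The platform-named FAM210B cluster TC20000427 differed by 0.12 ± 0.07 (limma, adjusted p = 0.587), with the treated arrays at 5.61 to 5.75 and the untreated at 5.46 to 5.58. Of the other 8 members, 1 (SLC40A1) lay wholly higher with FA and 0 wholly lower, against 1.9% and 1.76% of all genes. Without HT-29 0 ng/mL replicate 3 TFRC also lay wholly higher and FTL wholly lower. The shares of all genes without that array are not given here.

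The other 6 members differed by -0.04 (SLC25A37) to 0.25 (SLC11A2) on the log2 scale, with FECH at 0 and TFRC at 0.22. SLC11A2 had a 95% confidence interval of -0.04 to 0.55, and TFRC one of -0.33 to 0.76. Without HT-29 0 ng/mL replicate 3 SLC11A2 was at 0.07, FTL went from 0.03 to -0.17 and ALAS1 from 0.14 to -0.02. The median over the 8 members other than FAM210B was 0.09, against -0.02 over all genes. That median is not given here without HT-29 0 ng/mL replicate 3. There SLC40A1 and HMOX1 also fell, to 0.58 and -1.30, and TFRC rose to 0.27. With array weights, an alternative that lets limma count arrays unequally, SLC40A1 (0.64, adjusted p = 0.0411) and HMOX1 (-1.45, adjusted p = 0.0298) passed the threshold, as did 7.1% of all clusters. FAM210B (TC20001302) was at 1.40 there.

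**Figure D3:**
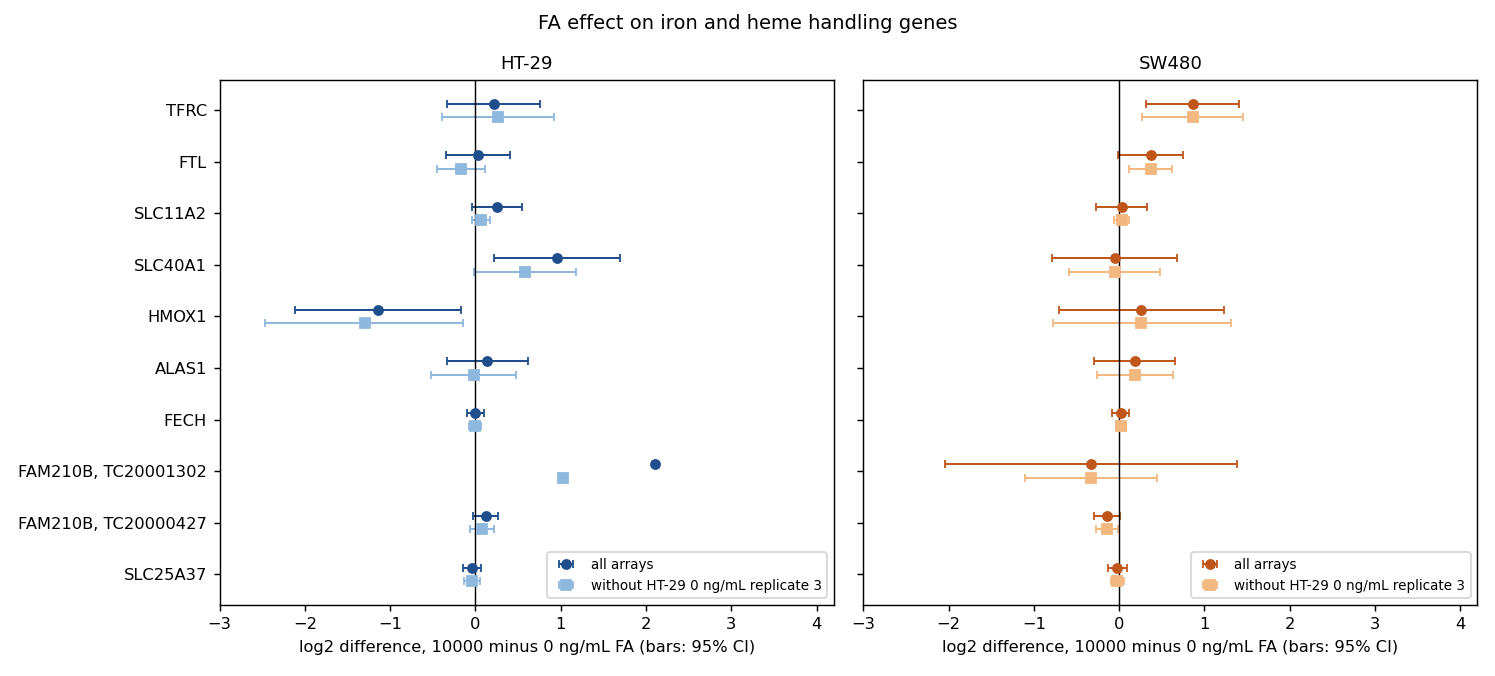
Log2 difference with FA (10000 minus 0 ng/mL, horizontal axis) for each cluster in HT-29 (left) and SW480 (right), from all arrays (dark circles) and without HT-29 0 ng/mL replicate 3 (light squares), with 95% confidence intervals from limma. FAM210B TC20001302 is drawn without intervals in HT-29, where the study had picked it, and moves there from 2.10 to 1.03 when that array is left out.

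In SW480 also no member passed the test: 0 of 9 were called by limma, against 0.00592% of all clusters (4 of 67528), and 1 of 9 had an unadjusted p under 0.05, against 3.62% of genes. That member was TFRC, with a mean of 13.54 ± 0.47 with FA and 12.68 ± 0.39 without. Every treated array (13.01 to 13.90) was above every untreated one (12.23 to 12.97), by a margin of 13.01 against 12.97. The log2 difference was 0.86 ± 0.24 (95% confidence interval 0.32 to 1.40, 1.82-fold, unadjusted p = 0.00561 and limma adjusted p = 0.957), and TFRC alone met the criteria of the methods, as did 0.739% of genes. Only the thresholds are the study's: the p-value is from limma, whose spread for each cluster is shared by both lines. TFRC varied less in HT-29 (SDs of 0.11 and 0.16) than in SW480.

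FTL was likewise higher on each treated SW480 array (17.67 to 17.91 against 17.29 to 17.55), with a log2 difference of 0.37 ± 0.17 (limma, adjusted p = 1). TFRC and FTL were the 2 of 9 members that lay wholly higher with FA in SW480, against 3.33% of all genes, and 0 lay wholly lower, against 3.41%. The platform-named FAM210B cluster lay wholly lower (-0.14 ± 0.07), and the added one differed by -0.33 ± 0.76 with overlapping groups. HMOX1 (0.26) and ALAS1 (0.19) overlapped between doses. SLC40A1, SLC11A2, FECH and SLC25A37 differed by -0.05 to 0.03, with a widest 95% confidence interval of -0.79 to 0.68, for SLC40A1. Because the spread is shared by both lines, the HT-29 arrays widen this interval and the SE of the added FAM210B cluster. The SLC40A1 SDs at 0 and 10000 ng/mL were 0.05 and 0.04 in SW480 but 0.68 and 0.54 in HT-29. Those of the added FAM210B cluster were 0.29 and 0.24 in SW480 but 1.94 and 0.50 in HT-29. The members' median was 0.03, against -0.01 over all genes.

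Whether FA acted differently in the lines was tested as the difference of the FA effects (SW480 minus HT-29). limma called 0 of 9 members and 0% of all clusters. Of the 8 members other than FAM210B, 1 had an unadjusted p under 0.05, against 2.67% of genes. This was HMOX1, whose SW480 signals are not known to be above background. It was at 1.41 ± 0.61 (95% confidence interval 0.03 to 2.78, adjusted p = 0.939), or 1.56 without HT-29 0 ng/mL replicate 3. SLC40A1 was at -1.01 ± 0.46, TFRC at 0.64 ± 0.34 and FTL at 0.34 ± 0.24 (each adjusted p = 0.939). Without that array SLC40A1 was at -0.63, TFRC at 0.60 and FTL at 0.54 (unadjusted p = 0.00982, limma adjusted p = 0.754). FAM210B TC20001302, which holds the HT-29 values that chose it, was at -2.43 with the array and -1.36 without it. For HMOX1 and SLC40A1 the intervals reached more than a log2 unit on either side of the estimate. They leave the size of such a difference largely undetermined there with 3 arrays per group. For FECH (-0.12 to 0.16) and SLC25A37 (-0.13 to 0.18) they were narrower, with equal values contributing.

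A wider set of 79 genes in 4 lists was read in the same fit, of which 69 had a cluster. With FA 0 of 69 were called by limma in either line, and for the lines 47 were called at 0 ng/mL (36 higher and 11 lower in SW480, 68.1%) and 43 at 10000 ng/mL (30 and 13, 62.3%), where all genes gave 53.9% and 53.2%. Without HT-29 0 ng/mL replicate 3 these counts were 52 and 53, and the shares of all genes called rose too, to 67.9% and 70.4%. The median log2 line difference of the 69 was 0.31 and 0.17, against 0.12 and 0.15 over all genes. Of all genes, 36.8% were called higher and 17% lower in SW480 at 0 ng/mL, and 37% and 16.2% at 10000 ng/mL.

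Of 26 measured genes of iron uptake, storage, export and regulation, 14 were higher and 5 lower in SW480 at 0 ng/mL, and 12 and 6 at 10000 ng/mL. In either direction 73.1% and 69.2% of this list were called, against 53.9% and 53.2% of all genes. CYBRD1, the ferric reductase of the duodenal brush border, was higher by a log2 difference of 5.71 ± 0.06 at 0 ng/mL (limma, adjusted p = 2.46e-11) and 5.70 at 10000 ng/mL, with a mean of 10.37 ± 0.08 in SW480 0 ng/mL and 4.66 in HT-29 0 ng/mL. SLC39A8, a carrier of zinc, manganese and iron (2.10 and 2.04), and BMP6, the ligand that induces hepcidin in the liver (2.65 and 2.80), were higher as well. The metalloreductase STEAP4 was lower (-2.96 and -3.36), as was HEPH, the ferroxidase that works beside ferroportin (-0.71 and -0.75). HEPH signals were low in both lines (means of 3.62 to 4.37). With no detection call it is not known whether HEPH, CYBRD1 in HT-29 or STEAP4 in SW480 (mean of 3.10) was above background, and a difference from such a signal can be understated.

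Of 13 genes of heme synthesis and mitochondrial import, 8 were higher and 1 lower at 0 ng/mL, and 5 and 1 at 10000 ng/mL. In either direction 69.2% and 46.2% of this list were called, against 53.9% and 53.2% of all genes. SLC25A38, which carries glycine into mitochondria, was higher by 1.20 and 1.38, SUCLA2, a subunit of succinyl-CoA synthetase, by 0.90 and 0.86, and CPOX, coproporphyrinogen oxidase, by 0.57 and 0.67. TMEM14C, a porphyrin carrier of the inner membrane, was higher at 0 ng/mL (0.79, limma, adjusted p = 7.13e-04) and not called at 10000 ng/mL (0.33, adjusted p = 0.0608). The same 0.33 was called higher when HT-29 0 ng/mL replicate 3, an array of neither group compared there, was left out of the fit. CLPX, an unfoldase that acts on ALAS, was lower (-0.42 and -0.45), a call lost at 0 ng/mL without HT-29 0 ng/mL replicate 3. ALAS2, the erythroid counterpart of ALAS1, had means of 4.10 to 4.28 in the 4 groups and was not called at either dose.

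Of 11 genes of heme transport and breakdown, 5 were higher and 1 lower at 0 ng/mL, and 4 and 2 at 10000 ng/mL. In either direction 54.5% of this list were called at each dose, against 53.9% and 53.2% of all genes. BLVRA, biliverdin reductase A, the enzyme after HMOX1, was higher in SW480 by 2.99 ± 0.09 (limma, adjusted p = 4.56e-09) and 2.90, opposite in direction to HMOX1. SLC48A1, which moves heme out of lysosomes, was higher by 2.49 and 2.11 and HEBP1, a heme-binding protein, by 1.21 and 1.01. ABCG2, a pump that exports porphyrins and heme among many substrates, was lower by -3.47 ± 0.25 (adjusted p = 2.85e-06) and -4.33 on the log2 scale, with SW480 means of 4.33 and 4.29, near the array medians as for SLC40A1.

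Of 19 genes of iron-sulfur cluster assembly, 9 were higher and 4 lower in SW480 at each dose. In either direction 68.4% of this list were called at each dose, against 53.9% and 53.2% of all genes. The glutaredoxin GLRX5 (2.12 and 2.07) and the assembly proteins ISCA1 (1.40 and 1.41) and ISCA2 (1.56 at 0 ng/mL) were higher, and the scaffold ISCU was lower (-0.88 at 10000 ng/mL). The calls of ISCA2 and ISCU held at both doses. The steps of cluster making were thus not all on one side.

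**Figure D4:**
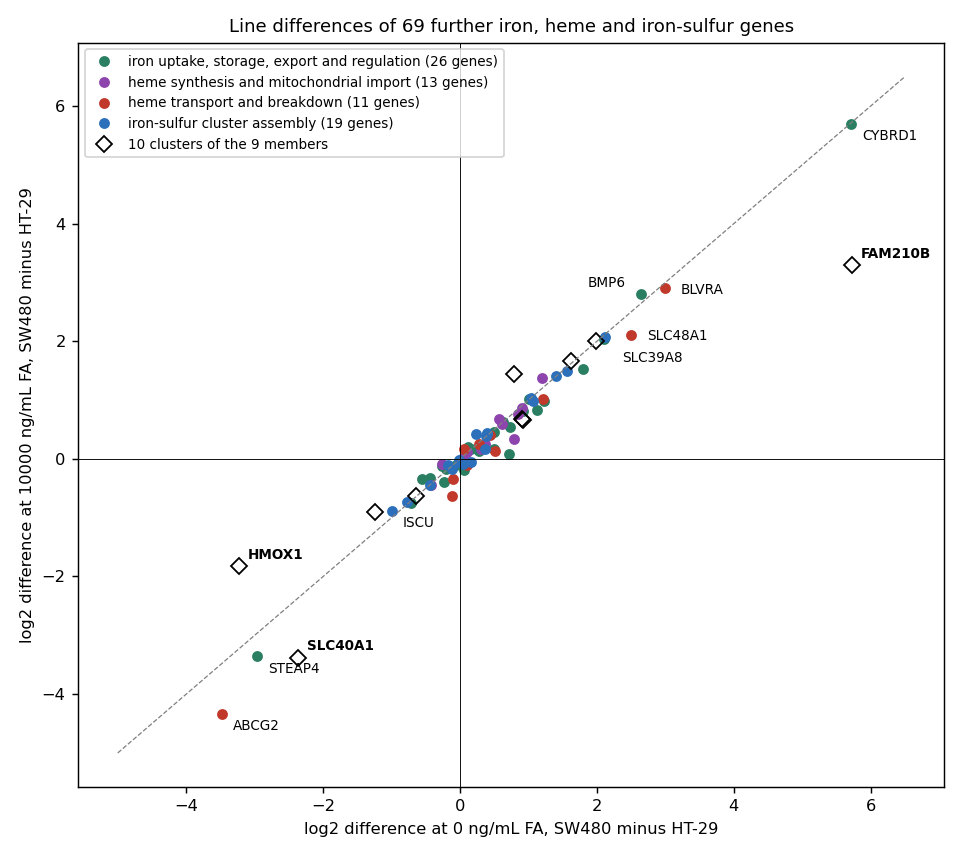
Log2 line difference (SW480 minus HT-29) at 0 ng/mL FA (horizontal axis) against that at 10000 ng/mL (vertical axis) for 69 further genes in 4 lists (coloured points) and the 10 clusters of the members (open diamonds), with the line of equality dashed. The axes share no arrays, CYBRD1 lies at 5.71 and 5.70, and HMOX1, SLC40A1 and the FAM210B cluster TC20001302 lie farther from the dashed line than the other members.

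With FA, ABCG2 in HT-29 had the largest difference among the named genes of the wider lists, at 0.82 (limma, adjusted p = 0.587; 0.48 without HT-29 0 ng/mL replicate 3), with the treated arrays wholly above the untreated. ACO1, the cytosolic aconitase that also acts as iron regulatory protein 1, was at 0.60. NCOA4, the receptor that delivers ferritin to lysosomes, was at 0.48 and SLC25A39 at 0.43. The groups of ACO1, NCOA4 and SLC25A39 overlapped, and without HT-29 0 ng/mL replicate 3 they were at 0.34, 0.22 and 0.04. In SW480 the largest named were SLC25A39 (0.33), the porphyrin carrier ABCB6 (0.27) and BLVRB, biliverdin reductase B (-0.27), each with an adjusted p of 1. None of these passed the test.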

How the data were processed

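The authors corrected, normalized and summarised the array signals with SST-RMA in Transcriptome Analysis Console 4.0 and deposited log2 values, used here without further change (0 missing values, 0 columns left aside). The array build is not given in the sources used here. The deposited arrays did not share 1 distribution (medians of 4.30 to 4.75), so a further quantile normalization and median centring are among the alternatives.

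limma 3.58.1 in R 4.3.3 fitted 4 group means over 12 arrays with eBayes (8 residual degrees of freedom), and the Benjamini-Hochberg adjustment ran over all 67528 clusters. In this fit each cluster had 1 estimate of spread, shared by both lines, which its standard errors, intervals and p-values use. The fit was tested on simulated data. Of the clusters, 23781 had 1 symbol, 1543 several and 42204 none listed. Where a gene had several clusters, the one of highest mean stood for it. Members and lists were chosen with earlier results of these data known. All members are named. From each wider list, genes were drawn from the 4 with the smallest p per contrast, and not all of those are printed. For the FA effects, the largest differences among them are given. ALAS2 was named after its values were seen. Alternatives were array weights, each line fitted separately, robust moderation with a variance trend, a replicate block, leaving out the lowest 33.3% of clusters, quantile normalization, median centring, leaving out each array, the mean of a gene's clusters and the criteria of the methods (p at most 0.05, fold change at least 1.5). RefSeq promoter windows were searched in Python 3.11.15, and figures were drawn with matplotlib 3.10.9.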

Additional observations from a re-analysis of the deposited data

Results flagged for a closer look

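For the platform-named FAM210B cluster TC20000427 the arrays were separated in opposite directions in the lines: all FA-treated HT-29 arrays were above the untreated (by 0.12 on the log2 scale), and all FA-treated SW480 arrays were below (-0.14), neither of which passed the test (limma, adjusted p = 0.587 and 1). The margins were narrow: the nearest treated and untreated arrays were at 5.61 and 5.58 in HT-29 and at 6.37 and 6.38 in SW480. The difference of the FA effects was -0.26 (limma, adjusted p = 0.939) and did not pass the test. Opposite separation of this kind occurred in 117 of 67528 clusters (0.173%).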

How the results depend on the processing

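All 10 line differences at 10000 ng/mL and 9 at 0 ng/mL kept their direction and their call under every alternative tried, and TFRC at 0 ng/mL lost its call with quantile normalization (0.37). Of 1030 values of single clusters, 992 kept direction and call, 5 lost and 9 gained a call, and 24 turned their sign, all of these in FA contrasts that were not called. Calls in the FA effect in HT-29 went from 0 to 3 with array weights and to 3 under the criteria of the methods, which also gave 1 in SW480 and 2 for the difference of the FA effects. FAM210B TC20001302, which the study chose on the HT-29 arrays, is 1 of the 3, 3 and 2. Leaving out 1 array gave 0 to 0 calls in each FA contrast, 8 to 9 at 0 ng/mL and 9 to 9 at 10000 ng/mL between lines. The FA effect in HT-29 turned for FTL with array weights (-0.15), with quantile normalization (-0.07) and with HT-29 alone without HT-29 0 ng/mL replicate 3 (-0.17), for TFRC with quantile normalization (-0.03), for ALAS1 with quantile normalization (-0.02) and with HT-29 alone without that array (-0.02), and for SLC25A37 with quantile normalization (0.00) and median centring (0.11). In SW480 SLC11A2 turned with quantile normalization (-0.01) and SLC25A37 with centring (0.04). The difference of the FA effects turned for SLC25A37 with quantile normalization (-0.07) and centring (-0.08), and with centring for ALAS1 (-0.06) and FECH (-0.08). Leaving out 1 array, the FA effect in HT-29 ran from -0.17 to 0.15 for FTL and from -0.02 to 0.28 for ALAS1, and the difference of the FA effects from -0.10 to 0.21 for ALAS1 and from 0.00 to 0.06 for SLC25A37. For FAM210B TC20001302 the HT-29 value ran from 1.03 to 2.91, for SLC40A1 from 0.58 to 1.24 and for HMOX1 from -1.58 to -0.59. The median of all clusters in the HT-29 FA contrast was -0.08, 0.02 with quantile normalization and 0.07 with centring. The cause of these changes was not tested. Same-numbered arrays of different groups mostly deviated together no more than others (correlations of -0.28 to 0.40, median -0.04, 3 of 18 pairs over 0.1), and 4 of 12 arrays correlated best with their own number. These values thus show no pairing by number, and with 3 arrays per group they cannot show that there was none. With the replicate block the counts of calls stayed at 0 for each FA contrast and at 9 for each line difference. With 3 arrays per group and no detection calls, small FA effects and the low signals of SLC40A1 and HMOX1 in SW480 were not resolved.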
